A study of Macaca mulatta with 27 samples.

Results

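The collagen genes are the 39 symbols of the count tables, of 17967 in all, that are written as COL, a type number, the letter A, and a chain number. They comprise 10 fibrillar collagen genes, 8 basement membrane collagen genes, and 21 others. Collagens are secreted proteins built from chains wound around each other in a helix, and each gene encodes 1 chain. Fibrillar collagens assemble into the fibers of connective tissue and cartilage, network-forming collagens such as type IV build the basement membrane beneath epithelia, and the others decorate fibrils, form beaded filaments, or span the cell membrane. Pluripotent cells in culture lie on a matrix and secrete basement membrane components, whereas high fibrillar collagen output is best known from mesenchymal and cartilage cells. COL5A1, COL7A1, COL9A3, COL17A1, and COL22A1 were not analysed here.

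The libraries came from LyonES-tGFP-(S3), a clonal line of rhesus embryonic stem cells, so all groups derive from 1 clone. Every group, Primed included, carried a tauGFP transgene under the CAG promoter and a lentiviral STAT3-ERT2 vector, which encodes a STAT3 that tamoxifen switches on. The design set 6 libraries of Primed cells beside 3 libraries of cells reprogrammed by each of TL2i, TL-CDK8i, 4i/L/b, t2iLGöY, NHSM-v, E-NHSM, and LCDM (EPS), protocols intended to bring primed cells to the naive state. TL2i cells received tamoxifen, LIF, and inhibitors of MEK and GSK3β, while in TL-CDK8i the CDK8/19 inhibitor CNIO-47799 took the place of these inhibitors. The other protocols were applied without tamoxifen. Primed cells were passaged mechanically as clumps and the reprogrammed cells as single cells after enzymatic dissociation, so passaging and protocol cannot be told apart in a comparison with Primed. The labels do not say that the libraries of a group were separate cultures, and p-values therefore measure the spread between these libraries, which may be technical.

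Library totals ranged from 7111886 to 20760914 counts. Levels are given as counts per 1000000 (CPM) after TMM scaling, with group means ± SD (n = 6 in Primed and n = 3 in each protocol). Log2 fold changes are given ± their standard error and come from edgeR's quasi-likelihood test, with Benjamini-Hochberg adjustment over all genes tested and a threshold of 0.05. Transcript lengths were not available, so levels were compared between groups and not between genes. The Primed columns carried the letters J and K, 3 libraries each, which the labels do not explain. Of the 39 collagen genes, 4 differed between the letters (COL27A1, COL18A1, COL6A1, and COL6A2, each lower in K). COL13A1, COL20A1, COL21A1, COL28A1, and COL6A5 were too low to be tested. Over all genes, 532 of 12559 tested (4.24%) differed between the letters. The sample labels also number sets of Primed samples and disagree on that number for some of them, so all 6 were taken as a single group. Markers of the labelled cell type, pluripotent cells, were then read in every group. POU5F1, a core pluripotency factor, stood at 1363 ± 30.9 CPM in E-NHSM, 498 ± 92.9 in TL-CDK8i, and 6.43 ± 1.26 or less in the other 5 protocols, against 1185 ± 51.7 in Primed. NANOG, another such factor, had 0 counts in every NHSM-v and t2iLGöY library and at most 11 counts in any 4i/L/b, TL2i, or LCDM (EPS) library. The summed level of the 7 pluripotency markers lay between 6380 and 7316 CPM in Primed, between 1514 and 2127 in TL-CDK8i, and between 170.1 and 556 in those 5 protocols. In E-NHSM it lay between 6866 and 7017. SOX2 was not called in LCDM (EPS), at 322 ± 8.78 CPM against 273 ± 58 in Primed (0.28 ± 0.14, adjusted p = 0.0935). The other 6 markers were lower there, where 28.8% of all genes were lower. LIN28A still had 271 ± 34.1 CPM in TL2i, against 576 ± 85.9 in Primed.

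Collagen transcripts took a larger part of the transcriptome in 5 of the 7 protocols. Summed over the 39 genes, the level was 3521 ± 534 CPM (SD, n = 6) in Primed, with a lowest value of 2626, a median of 3705, and a highest value of 3989. It was 26086 ± 3110 in 4i/L/b, 24063 ± 216 in NHSM-v, 16162 ± 2029 in TL-CDK8i, 12734 ± 3012 in TL2i, and 7929 ± 364 in t2iLGöY (SD, n = 3 each), and no library of these protocols fell within the Primed range. LCDM (EPS) stood at 2960 ± 224, inside the range of Primed, and E-NHSM at 1569 ± 22.4, below it. As a share of all counts, collagens made up from 0.245% to 0.392% of Primed libraries, from 0.157% to 0.163% of E-NHSM libraries, and from 2.22% to 2.78% of 4i/L/b libraries. Fibrillar genes supplied 16535 ± 2100 CPM in 4i/L/b and 552 ± 7.64 in E-NHSM against 2060 ± 480 in Primed. Basement membrane genes were highest in NHSM-v, at 7366 ± 258 CPM against 970 ± 79.2 in Primed.

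Markers of connective tissue cells differed between the groups too. The summed level of 14 fibroblast or mesenchymal markers lay between 1683 and 2311 CPM in Primed, between 811 and 886 in E-NHSM, and between 8667 and 8903 in NHSM-v. It lay between 5721 and 5874 CPM in 4i/L/b, between 5443 and 7639 in TL-CDK8i, between 3034 and 3338 in TL2i, between 3399 and 3722 in t2iLGöY, and between 2164 and 2497 in LCDM (EPS). All 14 markers exceeded 3 counts in every library of TL2i, TL-CDK8i, 4i/L/b, and NHSM-v, whereas DCN and LUM, small proteoglycans of connective tissue, were at 0 in every Primed, E-NHSM, and t2iLGöY library. VIM, an intermediate filament gene that pluripotent cells also express, supplied much of the sum, with 3943 ± 26.7 CPM in NHSM-v, 3126 ± 187 in t2iLGöY, and 2204 ± 156 in LCDM (EPS). Without VIM, the other 13 markers summed to between 404 and 487 CPM in t2iLGöY and between 127 and 148 in LCDM (EPS), below the 1202 to 1495 of Primed, and to between 4694 and 4971 in NHSM-v. In TL2i these 13 summed to between 1487 and 1563 CPM, which overlapped Primed. They summed to between 2850 and 2928 in 4i/L/b, 3144 and 4385 in TL-CDK8i, and 561 and 666 in E-NHSM. Of the markers tested, 3 were called higher and 3 lower in t2iLGöY, 3 higher and 7 lower in LCDM (EPS), and 7 higher and 3 lower in TL2i. Over all genes, between 25.1% and 28.8% were called in either direction in these protocols. Of the 8 neural markers, all were over 3 counts in every NHSM-v, TL2i, t2iLGöY, and LCDM (EPS) library, with a summed level between 6192 and 6439 CPM in LCDM (EPS) against 2386 to 2639 in Primed. Summed levels reached at most 169 CPM for 7 endoderm markers (t2iLGöY), 88.2 for 5 chondrocyte markers (TL2i), and 226 for 4 trophoblast markers (TL-CDK8i), against at most 21.5, 19.8, and 14.6 in Primed. Each of these highest sums came mostly from 1 gene. TTR had 148 ± 23.3 CPM in t2iLGöY, where SOX17 and AFP were at 0 and 2 of the 4 endoderm markers tested were called lower. HAPLN1 had 64.3 ± 13.9 CPM in TL2i and was the 1 chondrocyte marker called there, and KRT7, at 161 ± 48 CPM in TL-CDK8i, was the 1 trophoblast marker called. Without TTR, endoderm markers summed to between 45.5 and 77.2 CPM in TL2i, against 12.5 to 21.1 in Primed. That sum was also above Primed in 4i/L/b and TL-CDK8i, and below it in the other protocols. Without KRT7, trophoblast markers summed to between 169 and 185 CPM in LCDM (EPS), 109 and 162 in t2iLGöY, and 90.2 and 98.9 in TL2i. In Primed they summed to between 1.35 and 10.2, and E-NHSM was below that. Of all 4 trophoblast markers, 1 exceeded 3 counts in every LCDM (EPS) library. Of the 3 tested, 1 was called higher and 1 lower in LCDM (EPS) and likewise in t2iLGöY, and 2 were higher in TL2i. Whether feeder cells were used, and whether their reads were removed, is not given in the sources used here. The part of any such cells in the collagen levels was not tested, and in bulk samples fewer cells of a type and less RNA per cell cannot be told apart.

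Each protocol was then compared with the same 6 Primed libraries, so the 7 comparisons share their reference. In NHSM-v, 37 of the 39 collagen genes could be tested, and 25 were higher and 1 lower, where 58.3% of all genes tested were called (27.9% higher and 30.4% lower). In 4i/L/b, 25 were higher and 2 lower of 37 tested, against 55.4% of all genes (26.5% higher and 28.9% lower). In TL2i, 27 were higher and 4 lower of 38, against 50.8% of all genes (25.6% higher and 25.1% lower). The median log2 fold change of the tested collagens was 1.99, 2.23, and 2.02 in these protocols, whereas the median over all genes lay between -0.02 and 0.07 in every comparison. Higher calls thus outnumbered lower ones among collagens in each of these comparisons, while both directions were nearly even over the transcriptome. In these comparisons and those below, some low-count members passed the filter on low counts only through the group where they were higher. Their tests could find a difference in that direction alone. Among the calls above, these were for instance COL6A5 (higher in NHSM-v), COL13A1 and COL20A1 (higher in 4i/L/b and TL2i), and COL28A1 (higher in TL2i). COL10A1 (lower in all of them) and COL8A2 (lower in TL2i) were such calls too.

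TL-CDK8i and t2iLGöY gave fewer calls. In TL-CDK8i, 19 collagens were higher and 3 lower of 36 tested, against 46.2% of all genes (22.4% higher and 23.8% lower), with a median log2 fold change of 1.00. In t2iLGöY, 18 were higher and 6 lower of 37, against 54.3% of all genes (27.1% higher and 27.2% lower), with a median of 0.85. In LCDM (EPS), 8 were higher and 12 lower of 38, against 56.9% of all genes (28.1% higher and 28.8% lower), with a median of -0.10. The higher calls in LCDM (EPS) fell to 5 without LCDM (EPS) replicate 1 or replicate 2. Against the K libraries of Primed alone, the LCDM (EPS) calls were 12 higher and 11 lower, and against the J libraries alone 8 higher and 13 lower. In E-NHSM, 2 were higher and 13 lower of 36, against 26.3% of all genes (11.2% higher and 15.2% lower), with a median of -0.60. Medians did not change when genes without counts in one group were set at their bound. Each bound lay on the same side of the median as the fitted value, so the medians could not change. Of the 165 calls over the 7 comparisons, 135 held when any single library was left out, and the libraries behind the others are named below for each gene described in full.

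**Figure D1:**
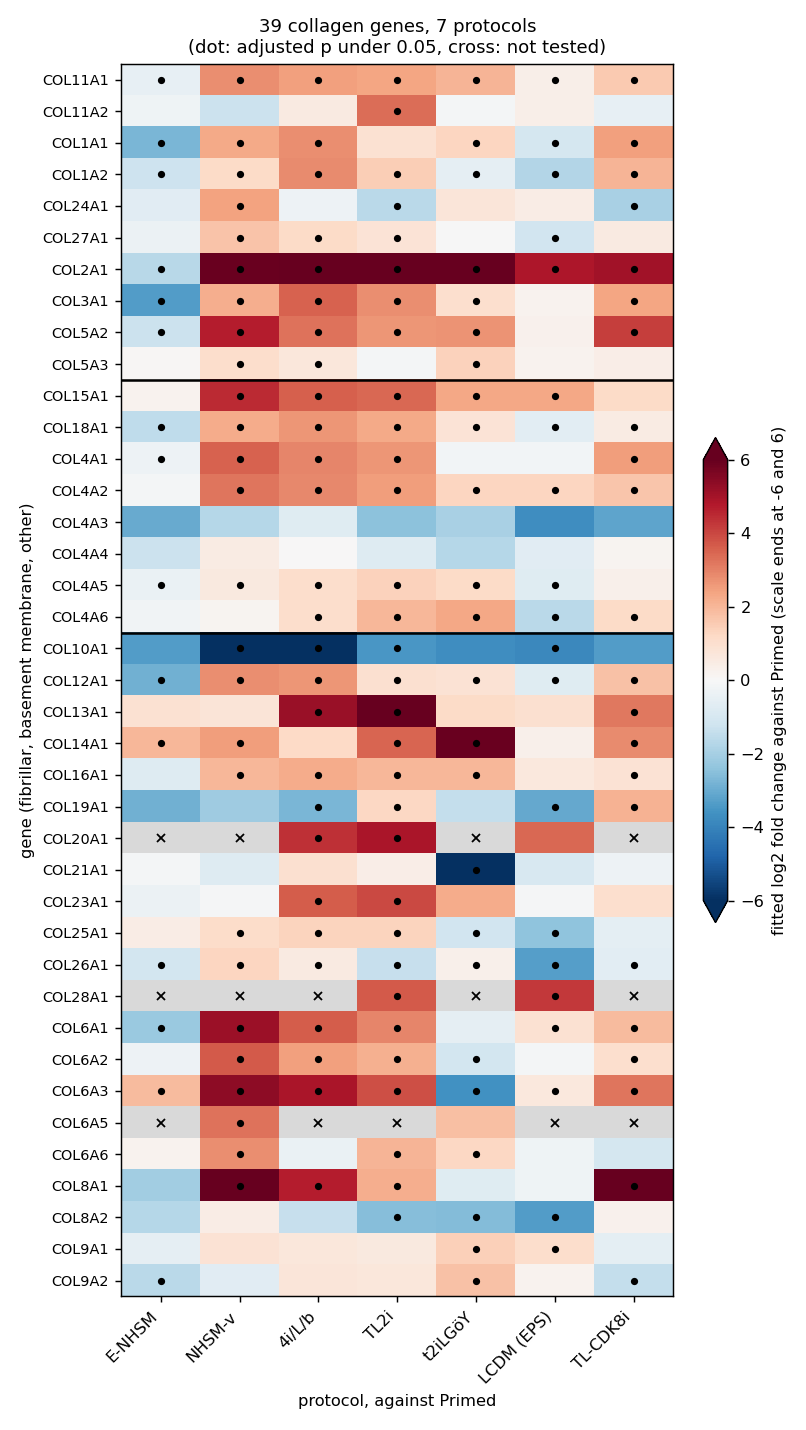
Fitted log2 fold change against Primed for the 39 collagen genes (rows, in the order fibrillar, basement membrane, and other, split by black lines) in the 7 protocols (columns), with colors from blue (lower) to red (higher) that saturate at -6 and 6. A black dot marks an adjusted p under 0.05 and a cross on gray a gene not tested. Red with dots fills most of the NHSM-v, 4i/L/b, and TL2i columns, blue prevails in E-NHSM, and COL2A1 is red with a dot in 6 of 7 columns.

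Among fibrillar collagens, 9 of 10 genes rose in NHSM-v, 8 in 4i/L/b, 7 in TL2i, and 6 each in t2iLGöY and TL-CDK8i, while 6 fell and none rose in E-NHSM. In LCDM (EPS) 2 rose and 3 fell. Over all genes, 27.9%, 26.5%, 25.6%, 27.1%, and 22.4% were called higher in the first 5 of these protocols and 15.2% lower in E-NHSM. COL1A1 encodes the main chain of type I collagen, the fiber of bone, tendon, and skin. In Primed it ranged from 667 to 1781 CPM with a median of 1373, and the 3 J libraries, from 1527 to 1781, all lay above the K libraries, from 667 to 1219. COL1A1 read 7863, 10168, and 9857 CPM in the 4i/L/b libraries, 7303, 8308, and 6304 in TL-CDK8i, and 6264, 6852, and 6359 in NHSM-v, all above every Primed library. It read 3001, 2944, and 3460 in t2iLGöY, 1481, 3303, and 2440 in TL2i, 605, 686, and 557 in LCDM (EPS), and 178, 203, and 199.6 in E-NHSM. The t2iLGöY libraries were again above Primed, those of TL2i and LCDM (EPS) overlapped it, and those of E-NHSM lay far below. The log2 fold change was 2.79 ± 0.29 (adjusted p = 4.82e-05) in 4i/L/b and -2.74 ± 0.37 (adjusted p = 0.00113) in E-NHSM, and 4i/L/b and TL-CDK8i did not differ beyond their spread (4i/L/b minus TL-CDK8i, 0.36 ± 0.21, adjusted p = 0.159). In TL2i the value was 0.90 ± 0.35 (adjusted p = 0.0615) and missed the threshold, which it passed without Primed J1 (0.94), Primed J2 (0.95), Primed J3 (1.02), Primed K2 (0.76), or TL2i replicate 1 (1.16), as well as against the K libraries alone (1.35). It also passed with DESeq2 (0.93) and with all groups in a single fit (0.90). The lower level in LCDM (EPS), -1.04 ± 0.32 (adjusted p = 0.023), lost its call without LCDM (EPS) replicate 1 (-1.005), LCDM (EPS) replicate 2 (-1.10), or LCDM (EPS) replicate 3 (-0.95), and against the K libraries alone (-0.57).

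COL1A2, which encodes the partner chain of type I collagen, did not follow COL1A1 in every protocol. It ranged in Primed from 347 to 548 CPM with a median of 453. COL1A2 read 2848, 3729, and 3444 CPM in 4i/L/b, 1903, 2133, and 1731 in TL-CDK8i, 1014, 1595, and 1258 in TL2i, and 1081, 1042, and 1009 in NHSM-v, again all above Primed. It read 320.5, 264, and 343 in t2iLGöY, 191, 202, and 192 in E-NHSM, and 133, 158, and 105 in LCDM (EPS), all below every Primed library. Against Primed, the log2 fold change was 2.82 ± 0.13 (adjusted p = 4.72e-09) in 4i/L/b, 1.49 ± 0.15 (adjusted p = 3.98e-06) in TL2i, and -1.76 ± 0.17 (adjusted p = 1.4e-06) in LCDM (EPS). In t2iLGöY, COL1A1 rose by 1.31 ± 0.30 (adjusted p = 0.00663) on the log2 scale while COL1A2 fell, at -0.53 ± 0.14 (adjusted p = 0.00499).

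COL2A1, the collagen of cartilage fibrils, showed the widest shift of the class in 6 protocols. In Primed it ranged from 6.28 to 21.3 CPM with a median of 10.4. COL2A1 read 1615, 1850, and 1773 CPM in 4i/L/b, 722, 1033, and 934 in TL2i, 950.4, 887, and 779 in t2iLGöY, and 751, 726, and 734 in NHSM-v. It read 461, 392, and 330.3 in TL-CDK8i, 293, 337, and 342 in LCDM (EPS), and 3.62, 3.33, and 4.25 in E-NHSM. Every library of the first 6 protocols lay above every Primed library, and every E-NHSM library lay below. The change on the log2 scale reached 7.18 ± 0.33 (adjusted p = 1.26e-07) in 4i/L/b, was 4.84 ± 0.31 (adjusted p = 1.98e-07) in LCDM (EPS), and was -1.64 ± 0.42 (adjusted p = 0.00585) in E-NHSM. The level in 4i/L/b exceeded that in TL2i (4i/L/b minus TL2i, 0.96 ± 0.12, adjusted p = 1.32e-06), TL2i and t2iLGöY did not differ beyond their spread (TL2i minus t2iLGöY, 0.05 ± 0.12, adjusted p = 0.754), and LCDM (EPS) and TL-CDK8i did not either (LCDM (EPS) minus TL-CDK8i, -0.26 ± 0.12, adjusted p = 0.062). COL2A1 is also in a gene list that the study drew up from these samples, so its direction here is not independent evidence of that list.

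The chains that join COL2A1 in cartilage fibrils diverged. COL11A1 had a mean of 106 ± 12.8 CPM in Primed and rose in 6 protocols, from 750.0 ± 28.6 in NHSM-v (2.77 ± 0.09, adjusted p = 1.23e-13) to 133 ± 9.83 in LCDM (EPS), a call of 0.36 that was lost without LCDM (EPS) replicate 2 (0.31, adjusted p = 0.0589). In E-NHSM it fell to 75.9 ± 8.61 CPM. COL11A2 was called in TL2i, at 42.5 ± 3.08 CPM against 4.08 ± 3.21 in Primed (3.37 ± 0.63, adjusted p = 0.0011), and its mean lay between 1.73 and 6.09 CPM in the other 6 protocols. TL2i exceeded 4i/L/b, the next highest protocol, as well (4i/L/b minus TL2i, -2.81 ± 0.66, adjusted p = 0.00334). Regulators of these cartilage genes moved with them in part. SOX9, the main activator of COL2A1 in cartilage, had 3.41 ± 1.01 CPM in Primed, 54.1 ± 4.71 in t2iLGöY (4.01 ± 0.25, adjusted p = 9.28e-10), and 8.79 ± 0.502 in 4i/L/b (1.31 ± 0.42, adjusted p = 0.0155). SOX9 and SOX5 were both called higher in the same 6 protocols as COL2A1, and SOX6 in 4i/L/b, TL2i, and t2iLGöY. The summed level of the 5 chondrocyte markers was between 59.6 and 88.2 CPM in TL2i and between 36.4 and 40.1 in TL-CDK8i, against 6.11 to 19.8 in Primed. In TL2i this sum was mostly HAPLN1, a link protein of cartilage matrix, and the other 4 markers summed to between 7.32 and 10.4 CPM there and to between 27.1 and 38.9 in TL-CDK8i, against 6.002 to 19.8 in Primed. The sum of all 5 was between 1.15 and 3.68 in NHSM-v, 10.2 and 16.2 in 4i/L/b, 7.17 and 12.8 in t2iLGöY, and 3.61 and 7.66 in LCDM (EPS), so COL2A1 was also high in protocols where that sum was not above Primed.

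COL3A1 encodes the fiber of skin and vessel walls that accompanies type I collagen. In Primed it ranged from 49.4 to 140.4 CPM with a median of 72.2. COL3A1 read 786, 1122, and 986 CPM in 4i/L/b, 368, 747, and 528 in TL2i, 446, 439, and 365 in TL-CDK8i, and 363, 376, and 363 in NHSM-v. It read 154, 158, and 155 in t2iLGöY, 89, 108, and 72 in LCDM (EPS), and 4.18, 9.38, and 9.8 in E-NHSM. Libraries of the first 5 protocols were all above Primed, LCDM (EPS) overlapped it, and E-NHSM lay below. Relative to Primed, the log2 fold change ran from 3.55 ± 0.29 (adjusted p = 4.15e-06) in 4i/L/b to -3.36 ± 0.41 (adjusted p = 0.000134) in E-NHSM. In t2iLGöY it was 1.00 ± 0.27 (adjusted p = 0.00883) and lost the call against the K libraries alone (0.86). In LCDM (EPS) it was 0.21 ± 0.28 (adjusted p = 0.547) and passed the threshold without Primed K1 (0.45, adjusted p = 0.045).

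COL5A2, a chain of the type V collagen that starts type I fibrils, ranged in Primed from 30.6 to 65.2 CPM with a median of 40.2. COL5A2 read 1176, 1196, and 1178 CPM in NHSM-v, 745, 906, and 712 in TL-CDK8i, 377, 465, and 472 in 4i/L/b, and 289, 211, and 342 in t2iLGöY. It read 211, 334, and 273 in TL2i, 56.2, 61.5, and 37 in LCDM (EPS), and 12.9, 23.6, and 17.7 in E-NHSM. LCDM (EPS) overlapped Primed, E-NHSM was below it, and the other 5 protocols were above. The fitted log2 fold change was 4.71 ± 0.19 (adjusted p = 3.28e-09) in NHSM-v, which exceeded TL-CDK8i (NHSM-v minus TL-CDK8i, 0.60 ± 0.22, adjusted p = 0.0325), and -1.28 ± 0.24 (adjusted p = 0.000308) in E-NHSM.

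The remaining fibrillar genes were counted at lower levels. COL24A1, a fibrillar chain of developing bone, had 7.79 ± 3.29 CPM in Primed, rose in NHSM-v to 42.8 ± 1.17 (2.40 ± 0.29, adjusted p = 1.65e-06), and fell in TL2i to 2.51 ± 0.235 (-1.63 ± 0.47, adjusted p = 0.00925) and in TL-CDK8i to 2.09 ± 0.676 (-1.93 ± 0.51, adjusted p = 0.00526). COL27A1, a chain of cartilage, stood at 43.9 ± 14.6 CPM in Primed, at 148 ± 5.59 in NHSM-v (1.71 ± 0.23, adjusted p = 2.68e-05), and at 19.4 ± 4.9 in LCDM (EPS) (-1.14 ± 0.28, adjusted p = 0.00283), and it was lower in the K than in the J libraries of Primed by 0.83 on the log2 scale. COL5A3, a further type V chain, had 13.9 ± 3.53 CPM in Primed and 34.8 ± 8.19 in t2iLGöY (1.36 ± 0.25, adjusted p = 0.00017), and its means in E-NHSM, TL2i, LCDM (EPS), and TL-CDK8i lay between 12.8 and 18.9.

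**Figure D2:**
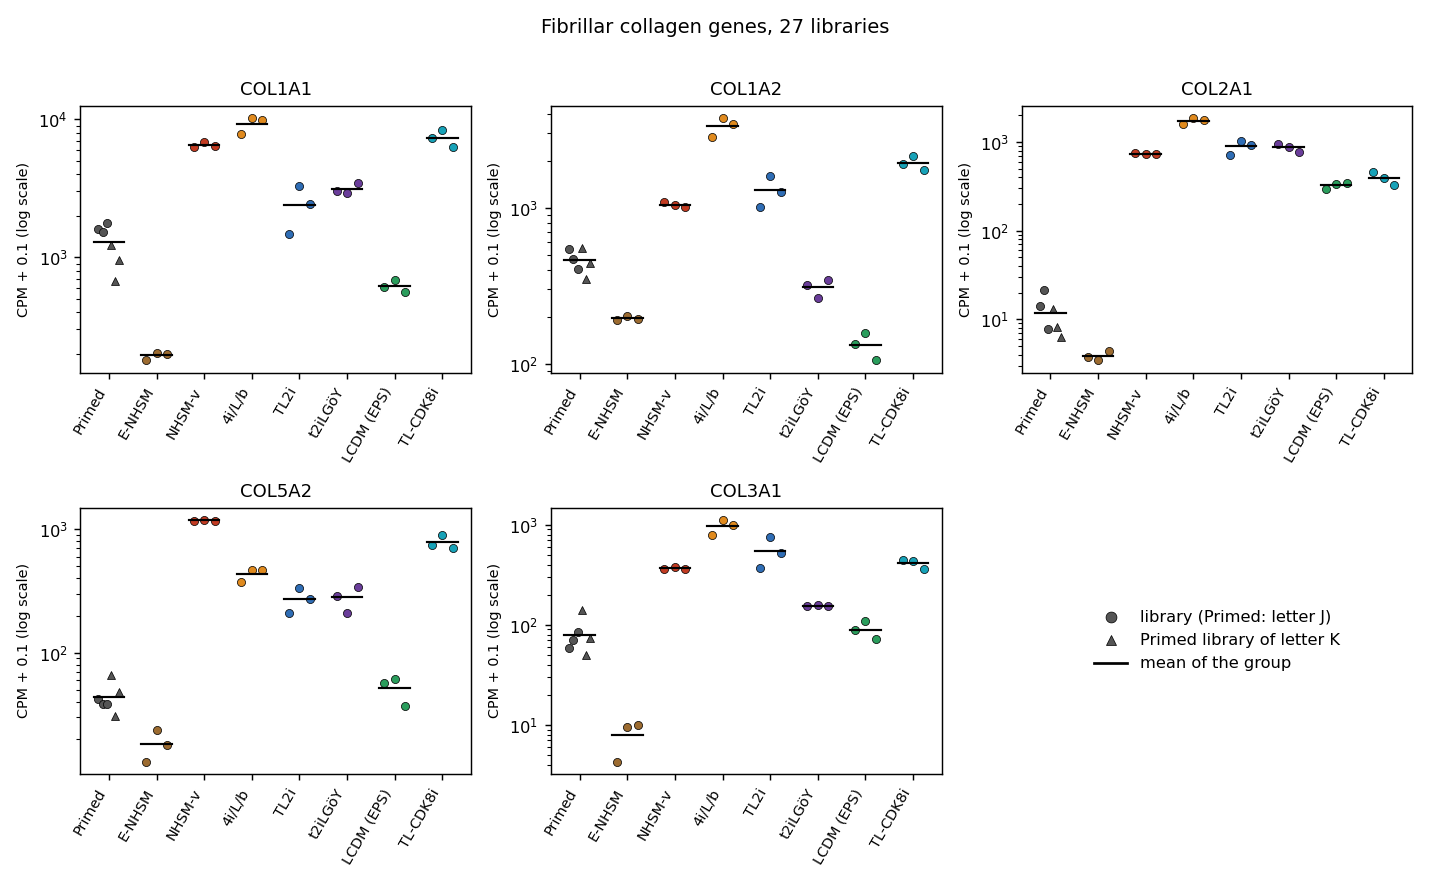
CPM plus 0.1, on a log scale, of the 5 fibrillar genes with the highest group means in the 27 libraries, by group. Points are libraries (triangles are Primed libraries of letter K) and lines are group means. COL2A1 is below 22 CPM in Primed and E-NHSM and above 290 in every other library, and E-NHSM is the lowest or next to lowest group in each panel.

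Of the 8 basement membrane genes, 6 rose in TL2i and 4i/L/b, 5 in NHSM-v and t2iLGöY, and 4 in TL-CDK8i, with none lower in these 5 protocols. Between 22.4% and 27.9% of all genes were called higher in those 5. In LCDM (EPS) 2 rose and 3 fell, near the 28.1% and 28.8% of all genes called in each direction, and in E-NHSM 3 fell, against 15.2% of all genes. COL4A1 and COL4A2 encode the chains of the most widespread type IV collagen. In Primed, COL4A1 ranged from 194 to 257 CPM with a median of 223. COL4A1 read 2825, 2623, and 2643 CPM in NHSM-v, 1559, 1950, and 1773 in 4i/L/b, 1069, 1763, and 1371 in TL2i, and 1278, 1511, and 1104 in TL-CDK8i. It read 198, 160.2, and 227 in t2iLGöY, 206, 199, and 176 in LCDM (EPS), and 184, 191, and 169 in E-NHSM. The first 4 protocols were far above Primed, t2iLGöY and LCDM (EPS) overlapped it, and E-NHSM lay just below. The log2 fold change was 3.55 ± 0.07 (adjusted p = 3.79e-16) in NHSM-v and -0.16 ± 0.11 (adjusted p = 0.237) in t2iLGöY. In LCDM (EPS) it was -0.17 ± 0.09 (adjusted p = 0.127), which passed the threshold against the K libraries alone (-0.22). The fall in E-NHSM, -0.30 ± 0.09 (adjusted p = 0.0188), lost its call without E-NHSM replicate 1 (-0.31) or E-NHSM replicate 3 (-0.25), and against the J libraries alone (-0.24). The call was also lost with upper-quartile scaling (-0.23) and with all groups in a single fit (-0.30).

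COL4A2 rose in all protocols except E-NHSM. It ranged in Primed from 247 to 379 CPM with a median of 319. COL4A2 read 3166, 3059, and 2985 CPM in NHSM-v, 2145, 2627, and 2400 in 4i/L/b, 1481, 2074, and 1846 in TL2i, and 1045, 1158, and 846 in TL-CDK8i. It read 793, 659, and 821 in t2iLGöY, 748, 799, and 739 in LCDM (EPS), and 299, 292, and 282 in E-NHSM. Only the E-NHSM libraries overlapped Primed, and the rest were above it. Against Primed, the log2 fold change was 3.23 ± 0.10 (adjusted p = 2.03e-12) in NHSM-v, 1.29 ± 0.11 (adjusted p = 8.45e-08) in t2iLGöY, 1.30 ± 0.10 (adjusted p = 3.13e-08) in LCDM (EPS), and -0.12 ± 0.10 (adjusted p = 0.427) in E-NHSM. Thus in t2iLGöY and LCDM (EPS) COL4A2 rose while its partner COL4A1 was not called, and these protocols did not differ from each other beyond their spread for either gene (t2iLGöY minus LCDM (EPS), -0.03 ± 0.11, adjusted p = 0.897, for COL4A2 and t2iLGöY minus LCDM (EPS), -0.01 ± 0.16, adjusted p = 0.993, for COL4A1).

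COL4A5 and COL4A6 encode a type IV network of some epithelia, and their highest levels were in TL2i and t2iLGöY. COL4A5 ranged in Primed from 81.9 to 117 CPM with a median of 105. COL4A5 read 227, 316, and 258 CPM in TL2i, 233, 216, and 214 in t2iLGöY, 190.3, 245, and 222 in 4i/L/b, and 163, 158, and 158 in NHSM-v. It read 139.9, 108, and 138 in TL-CDK8i, 63.9, 85.2, and 82.4 in E-NHSM, and 61.9, 59.4, and 59.4 in LCDM (EPS). Libraries of the first 4 protocols were above Primed, TL-CDK8i and E-NHSM overlapped it, and LCDM (EPS) was below. The change on the log2 scale was 1.38 ± 0.11 (adjusted p = 8.09e-08) in TL2i and -0.74 ± 0.11 (adjusted p = 4.52e-05) in LCDM (EPS). It was -0.42 ± 0.12 (adjusted p = 0.0165) in E-NHSM, a call lost without E-NHSM replicate 1 (-0.29, adjusted p = 0.16) and against the J libraries alone (-0.35). In TL-CDK8i it was 0.29 ± 0.12 (adjusted p = 0.0523), which passed without Primed J1 (0.32), Primed K3 (0.35), or TL-CDK8i replicate 2 (0.40), and with DESeq2 (0.34). It also passed with upper-quartile scaling (0.30), with no filter (0.30), and with all groups in a single fit (0.34).

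COL4A6 ranged in Primed from 46.5 to 64.9 CPM with a median of 50.6. COL4A6 read 275, 283, and 215 CPM in t2iLGöY, 181, 239, and 209.9 in TL2i, 138, 92.1, and 128 in TL-CDK8i, and 100.1, 119, and 119.6 in 4i/L/b. It read 66.4, 59.5, and 55.2 in NHSM-v, 49.4, 41.5, and 47.2 in E-NHSM, and 15.5, 17.3, and 16.9 in LCDM (EPS). The first 4 protocols were above Primed, NHSM-v and E-NHSM overlapped it, and LCDM (EPS) was below. Relative to Primed, the log2 fold change was 2.32 ± 0.12 (adjusted p = 4.48e-11) in t2iLGöY, 1.99 ± 0.11 (adjusted p = 1.43e-09) in TL2i, and -1.63 ± 0.16 (adjusted p = 2.95e-07) in LCDM (EPS), and TL2i and t2iLGöY did not differ beyond their spread (TL2i minus t2iLGöY, -0.29 ± 0.13, adjusted p = 0.0604). COL4A3 and COL4A4, the chains of the kidney and lung network, were near the limit of counting. COL4A3 had a mean of 1.36 ± 0.897 CPM in Primed and at most 0.834 ± 0.628 in a protocol, COL4A4 had 2.76 ± 1.33 in Primed and between 0.824 and 3.97 in the protocols, and neither was called in any comparison with Primed. A level of 3 counts, taken as the floor here, equals between 0.138 and 0.422 CPM depending on the library, and such limits cover counting error only.

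COL18A1 and COL15A1 encode basement membrane proteoglycans, and the endostatin fragment is cut from COL18A1. In Primed, COL18A1 ranged from 214 to 306 CPM with a median of 269.7. COL18A1 read 1361, 1248, and 1266 CPM in NHSM-v, 1532, 1872, and 1753 in 4i/L/b, 1010, 1464, and 1324 in TL2i, and 467, 444, and 474 in t2iLGöY. It read 465, 361, and 328 in TL-CDK8i, 159.8, 185, and 153 in LCDM (EPS), and 91.6, 94.6, and 88.4 in E-NHSM. No protocol overlapped Primed, with the first 5 above it and the last pair below. The fitted log2 fold change was 2.64 ± 0.10 (adjusted p = 3.35e-11) in 4i/L/b, -0.64 ± 0.12 (adjusted p = 0.00022) in LCDM (EPS), and -1.54 ± 0.12 (adjusted p = 3.34e-09) in E-NHSM. COL15A1 had 3.64 ± 1.54 CPM in Primed and 83.4 ± 7.55 in NHSM-v (4.46 ± 0.27, adjusted p = 3.13e-10), and it rose in LCDM (EPS) as well, to 17.6 ± 1.74 (2.31 ± 0.37, adjusted p = 6.24e-05). In TL-CDK8i it read 8.31 ± 1.83, a difference of 1.15 ± 0.46 (adjusted p = 0.0515), and in E-NHSM 4.16 ± 0.339.

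**Figure D3:**
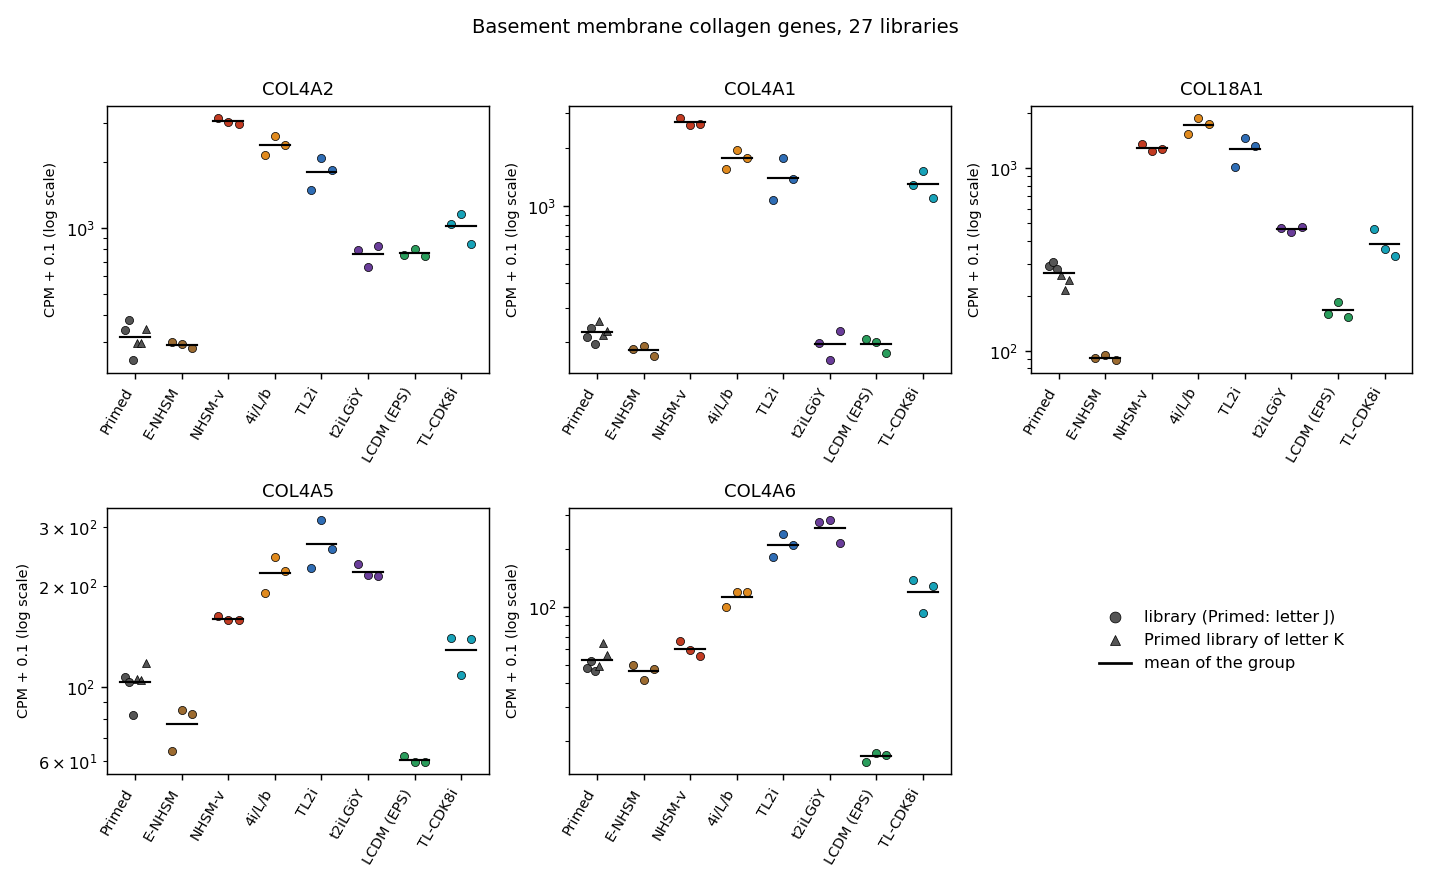
CPM plus 0.1, on a log scale, of the 5 basement membrane genes with the highest group means in the 27 libraries, by group. Points are libraries (triangles are Primed libraries of letter K) and lines are group means. In the COL4A1 panel t2iLGöY and LCDM (EPS) sit at the Primed level, in the COL4A2 panel they sit above it, and in the COL4A6 panel LCDM (EPS) lies below 18 CPM.

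The beaded filament collagen, type VI, is assembled from COL6A1, COL6A2, and COL6A3 and links cells to the surrounding matrix. All 3 genes rose in TL2i, TL-CDK8i, 4i/L/b, and NHSM-v. COL6A1 ranged in Primed from 34.8 to 61.2 CPM with a median of 40.8, with the J libraries above the K libraries. COL6A1 read 1635, 1525, and 1724 CPM in NHSM-v, 519.8, 659, and 570.1 in 4i/L/b, 281, 399, and 341 in TL2i, and 188, 194, and 126 in TL-CDK8i. It read 76.3, 84, and 87.4 in LCDM (EPS), 30.4, 20.7, and 40.9 in t2iLGöY, and 11.2, 9.32, and 8.72 in E-NHSM. Apart from t2iLGöY, which overlapped Primed, and E-NHSM, which was below it, all protocols were above. The log2 fold change was 5.13 ± 0.20 (adjusted p = 9.16e-09) in NHSM-v, 0.91 ± 0.19 (adjusted p = 0.000609) in LCDM (EPS), and -2.21 ± 0.24 (adjusted p = 5e-07) in E-NHSM. In t2iLGöY it was -0.52 ± 0.25 (adjusted p = 0.0851), which passed the threshold without Primed K3 (-0.63) or t2iLGöY replicate 3 (-0.78) and against the J libraries alone (-0.82). With all groups in a single fit (-0.54) it passed as well.

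COL6A2 ranged in Primed from 41.5 to 120.3 CPM with a median of 59.2, and here also J libraries were above K libraries. COL6A2 read 1006, 905, and 1003 CPM in NHSM-v, 362, 476, and 419.7 in 4i/L/b, 256, 376, and 331 in TL2i, and 161, 157, and 128 in TL-CDK8i. It read 62.5, 72.2, and 59.8 in LCDM (EPS), 66.3, 51.2, and 61.1 in E-NHSM, and 36.6, 30, and 31.7 in t2iLGöY. LCDM (EPS) and E-NHSM lay within the Primed range, t2iLGöY below it, and the other 4 protocols above. Against Primed, the log2 fold change was 3.69 ± 0.35 (adjusted p = 3.61e-05) in NHSM-v, -0.29 ± 0.35 (adjusted p = 0.618) in E-NHSM, and -0.13 ± 0.32 (adjusted p = 0.76) in LCDM (EPS), and the sign of the last pair turned with the Primed libraries used. Against the K libraries alone the values were 0.31 (not called) and 0.46 (called), and in E-NHSM the value against the J libraries alone was -0.71 (called). The rise in TL-CDK8i, 0.99 ± 0.33 (adjusted p = 0.0304), lost its call without Primed J3 (0.96), TL-CDK8i replicate 1 (0.96), TL-CDK8i replicate 2 (0.95), or TL-CDK8i replicate 3 (1.12), and with no filter (1.005). The fall in t2iLGöY, -1.12 ± 0.35 (adjusted p = 0.0186), lost it without t2iLGöY replicate 2 (-1.05) or t2iLGöY replicate 3 (-1.09).

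COL6A3 rose in E-NHSM and fell in t2iLGöY. In Primed it ranged from 14.8 to 42.6 CPM with a median of 29.6. COL6A3 read 1298, 1185, and 1414 CPM in NHSM-v, 805, 1043, and 971 in 4i/L/b, 341, 593, and 393 in TL2i, and 287, 328, and 239.7 in TL-CDK8i. It read 120.5, 108, and 104 in E-NHSM, 45.7, 55.6, and 35.3 in LCDM (EPS), and 2.65, 0.335, and 4.18 in t2iLGöY. E-NHSM was above every Primed library, t2iLGöY below every one, and LCDM (EPS) overlapped Primed. The change on the log2 scale was 5.38 ± 0.25 (adjusted p = 1.08e-07) in NHSM-v, 1.88 ± 0.21 (adjusted p = 3.68e-06) in E-NHSM, and -3.62 ± 0.58 (adjusted p = 0.000175) in t2iLGöY, and E-NHSM and t2iLGöY differed from each other (E-NHSM minus t2iLGöY, 5.56 ± 0.39, adjusted p = 4.2e-09). In E-NHSM, where COL6A3 rose, COL6A1 fell. The value in LCDM (EPS), 0.63 ± 0.25 (adjusted p = 0.0402), lost its call without Primed J2 (0.66), Primed K1 (0.60), Primed K3 (0.62), LCDM (EPS) replicate 1 (0.65), or LCDM (EPS) replicate 2 (0.49), and against the J libraries alone (0.64). With all groups in a single fit (0.63) the call was lost too. COL6A6, a further type VI chain, stood at 4.88 ± 1.78 CPM in Primed and rose in NHSM-v to 34.8 ± 1.83 (2.78 ± 0.30, adjusted p = 3.92e-07) and in TL2i to 20.3 ± 6.13 (2.05 ± 0.33, adjusted p = 0.00011). COL6A5 had at most 2.34 ± 0.391 CPM, in NHSM-v, and at most 1.27 ± 0.505 in any other group.

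COL8A1 encodes a short-chain collagen of vessel walls and of the cornea, and its range across protocols was among the widest of the 39 genes. In Primed it ranged from 0 to 15.8 CPM with a median of 4.28. COL8A1 read 652, 963, and 692 CPM in TL-CDK8i, 650.0, 566, and 640.2 in NHSM-v, 165, 190.3, and 152 in 4i/L/b, and 18.2, 35, and 29.3 in TL2i. It read 6.23, 6.05, and 2.44 in LCDM (EPS), 4.48, 1, and 5.12 in t2iLGöY, and 1.93, 0.832, and 1.45 in E-NHSM. The first 4 protocols were above every Primed library and the other 3 overlapped them. Relative to Primed, the log2 fold change was 6.90 ± 0.64 (adjusted p = 6.86e-05) in TL-CDK8i and 6.57 ± 0.62 (adjusted p = 4.15e-05) in NHSM-v, which did not differ beyond their spread (NHSM-v minus TL-CDK8i, -0.30 ± 0.27, adjusted p = 0.36). In TL2i it was 2.18 ± 0.73 (adjusted p = 0.0285), a call lost without TL2i replicate 1 (2.41), TL2i replicate 2 (1.97), or TL2i replicate 3 (2.14), and with DESeq2 (2.23). The values were -2.09 ± 0.92 (adjusted p = 0.109) in E-NHSM, -0.73 ± 0.95 (adjusted p = 0.542) in t2iLGöY, and -0.26 ± 0.85 (adjusted p = 0.818) in LCDM (EPS), and the E-NHSM value passed without Primed J3 (-2.34, adjusted p = 0.00443), the Primed library in which COL8A1 was at 0, against the K libraries alone (-2.72), and with DESeq2 (-2.09). That value also passed with all groups in a single fit (-2.14).

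COL8A2, the partner of COL8A1, was not called in TL-CDK8i or NHSM-v, where COL8A1 was highest. It had 5.61 ± 3.22 CPM in Primed, 6.88 ± 2.89 in TL-CDK8i (0.26 ± 0.52, adjusted p = 0.709), and 7.87 ± 2.82 in NHSM-v (0.44 ± 0.52, adjusted p = 0.496), and it fell in TL2i to 0.94 ± 0.659 (-2.56 ± 0.73, adjusted p = 0.00863) and in LCDM (EPS) to 0.52 ± 0.289 (-3.37 ± 0.79, adjusted p = 0.00184). The TL2i call was lost against the J libraries alone (-1.96). In TL2i and LCDM (EPS), COL8A2 passed the filter on low counts through Primed alone, where it was higher. Its test there could only find a fall. COL10A1, the collagen of hypertrophic cartilage, had 2.29 ± 2.3 CPM in Primed, where 1 library, J3, stood apart at 6.76. It had 0 counts in every NHSM-v and 4i/L/b library, at least 7.39-fold and 7.23-fold lower than Primed against a floor of 3 counts over the group, or at least 4.501-fold and 4.41-fold lower without Primed J3, and both falls passed the test (adjusted p = 0.00433 and 0.0043). In these comparisons COL10A1 passed the filter on low counts through Primed alone, the group where it was higher, so a test could only find a fall. In TL-CDK8i no library had more than 3 counts of COL10A1, which was 9.09-fold lower (95% counting interval 4.06 to 25.3) and missed the threshold (adjusted p = 0.0531).

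Fibril-associated collagens sit on the surface of larger fibrils. COL12A1, which ties type I fibrils together, ranged in Primed from 97.2 to 131 CPM with a median of 115. COL12A1 read 834, 820.0, and 826 CPM in NHSM-v, 672, 822, and 794 in 4i/L/b, 421, 432, and 342 in TL-CDK8i, and 147, 319.6, and 202 in TL2i. It read 202, 219.9, and 192 in t2iLGöY, 65.4, 84.1, and 53.7 in LCDM (EPS), and 7.75, 17.7, and 22.2 in E-NHSM. LCDM (EPS) and E-NHSM were below Primed and the other 5 protocols above it. The fitted log2 fold change was 2.79 ± 0.08 (adjusted p = 4e-14) in NHSM-v, -0.74 ± 0.14 (adjusted p = 0.000284) in LCDM (EPS), and -2.87 ± 0.26 (adjusted p = 1.95e-06) in E-NHSM. NHSM-v and 4i/L/b did not differ beyond their spread (NHSM-v minus 4i/L/b, 0.11 ± 0.28, adjusted p = 0.786).

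COL14A1, which also coats type I fibrils, had its highest level in t2iLGöY, at 147 ± 20.9 CPM against 2.48 ± 2.24 in Primed (5.92 ± 0.53, adjusted p = 9.15e-06), above TL2i with 28.2 ± 4.94 (TL2i minus t2iLGöY, -2.36 ± 0.19, adjusted p = 1.96e-11). In E-NHSM, COL14A1 was at 9.82 ± 2.17 CPM, and this rise (1.98 ± 0.64, adjusted p = 0.0257) lost its call without E-NHSM replicate 1 (2.12), E-NHSM replicate 2 (2.03), or E-NHSM replicate 3 (1.80). COL16A1, a gene of fibroblasts and smooth muscle, had 13.5 ± 5.6 CPM in Primed and between 52.3 and 64.9 in t2iLGöY, TL2i, NHSM-v, and 4i/L/b, where it rose by between 1.97 and 2.23 on the log2 scale. COL19A1, a minor chain, rose in TL-CDK8i from 3.14 ± 1.44 to 13.5 ± 2.76 CPM (2.07 ± 0.42, adjusted p = 0.000799), and its means in E-NHSM, NHSM-v, 4i/L/b, and LCDM (EPS) were between 0.351 and 0.749. COL9A1 and COL9A2, chains of the type IX collagen that covers cartilage fibrils, both rose in t2iLGöY, COL9A1 from 5.62 ± 2.45 to 15.1 ± 0.219 CPM (1.45 ± 0.39, adjusted p = 0.00429) and COL9A2 from 14.3 ± 10.5 to 46.6 ± 2.72 (1.75 ± 0.43, adjusted p = 0.00432). The 6 Primed values of COL9A2 included 1, in J3, of 35.1, with the other 5 between 6.06 and 12.5. COL20A1 rose in TL2i to 3.51 ± 0.608 CPM (4.89 ± 1.29, adjusted p = 0.00513) and had 0 counts in 5 of the 6 Primed libraries. COL21A1 had 0 counts in every t2iLGöY library and in Primed J3, and its Primed mean was carried by J2, at 4.40 CPM. The t2iLGöY level was at least 7.18-fold lower than that mean (adjusted p = 0.0136), and at least 4.36-fold lower without J2, where the call held. COL21A1 in t2iLGöY and COL20A1 in TL2i passed the filter on low counts only through the group where each was higher. Their tests could thus find a difference in that direction alone.

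The transmembrane collagens COL13A1, COL23A1, and COL25A1 all rose in 4i/L/b and TL2i. COL13A1, a protein of cell-matrix junctions, went from 0.661 ± 1.2 CPM in Primed to 39.6 ± 4.43 in TL2i (5.96 ± 0.92, adjusted p = 0.000331) and 24.4 ± 5.71 in 4i/L/b (5.19 ± 1.05, adjusted p = 0.00165). In both comparisons COL13A1 passed the filter on low counts only through the reprogrammed cells, where it was higher. Its test could thus only find a rise. COL23A1 went from 1.41 ± 1.38 to 21.9 ± 6.83 in TL2i (3.96 ± 0.78, adjusted p = 0.00107) and 18.2 ± 2.75 in 4i/L/b (3.64 ± 0.82, adjusted p = 0.00211). Neither gene differed between TL2i and 4i/L/b beyond the spread (4i/L/b minus TL2i, -0.70 ± 0.44, adjusted p = 0.273, for COL13A1 and 4i/L/b minus TL2i, -0.27 ± 0.51, adjusted p = 0.766, for COL23A1). Both genes had means of at most 1.37 CPM in E-NHSM, NHSM-v, and LCDM (EPS). COL25A1, known from neurons, had 14.8 ± 6.42 CPM in Primed and 39.2 ± 8.55 in 4i/L/b (1.35 ± 0.35, adjusted p = 0.0048), but fell in LCDM (EPS) to 2.67 ± 0.312 (-2.43 ± 0.46, adjusted p = 0.000333). COL26A1, a secreted collagen with an EMI domain, fell most in LCDM (EPS), from 151 ± 12.8 to 14.8 ± 4.2 CPM (-3.30 ± 0.18, adjusted p = 3.48e-10), and rose in NHSM-v to 386 ± 19.6 (1.31 ± 0.09, adjusted p = 1.33e-09). It fell in TL2i (-1.38), E-NHSM (-1.12), and TL-CDK8i (-0.66) as well. COL28A1 had no group mean above 3.2 ± 3.87 CPM, in t2iLGöY.

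**Figure D4:**
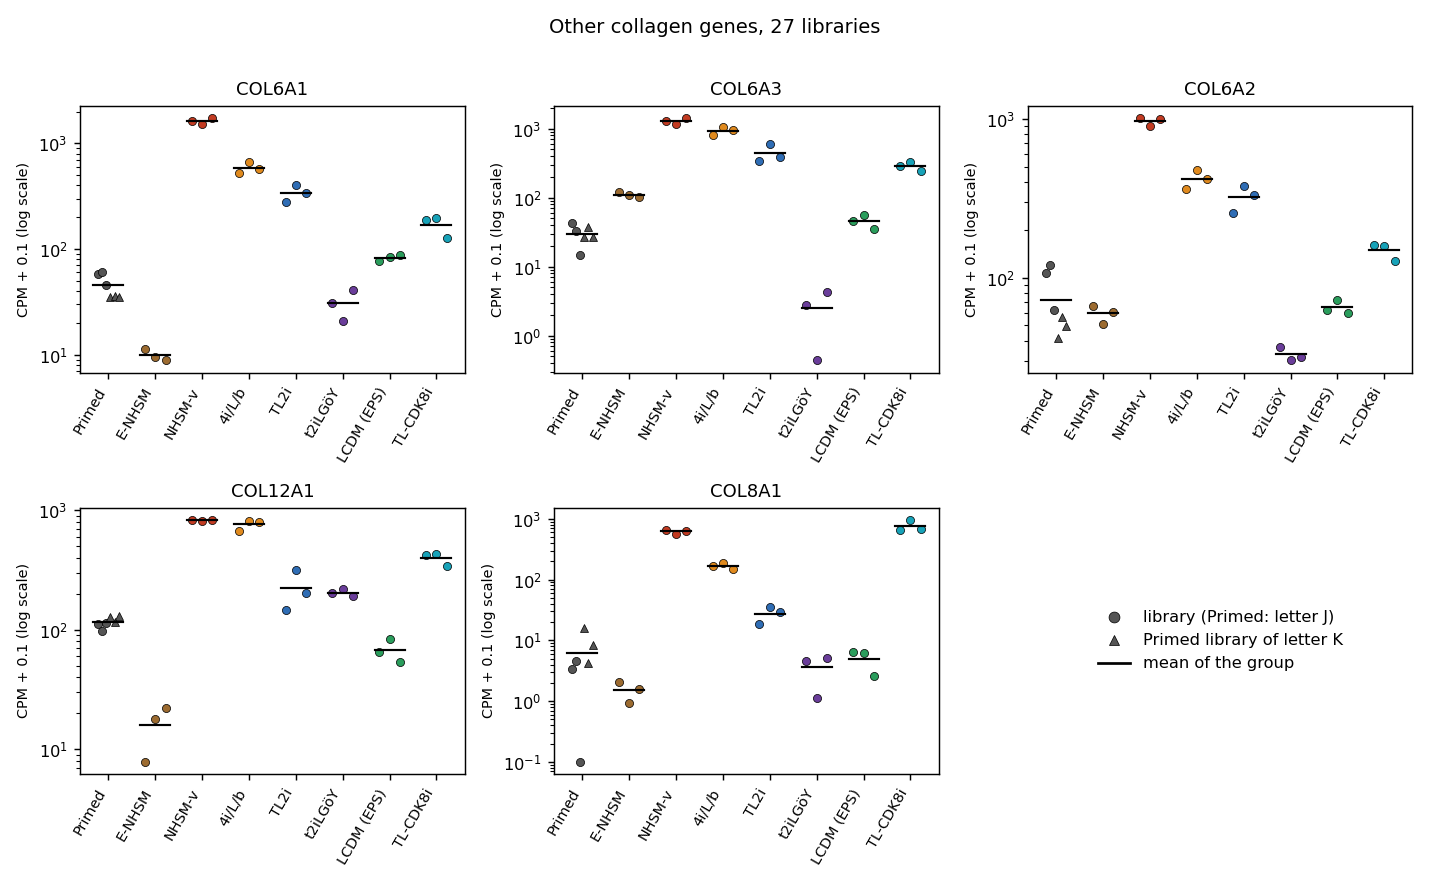
CPM plus 0.1, on a log scale, of the 5 other collagen genes with the highest group means in the 27 libraries, by group. Points are libraries (triangles are Primed libraries of letter K) and lines are group means. COL6A3 is above Primed in E-NHSM and below it in t2iLGöY, COL6A1 is below Primed in E-NHSM, and COL8A1 is above 560 CPM in NHSM-v and TL-CDK8i only.

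Because genes of the same collagen type moved apart in places, log2 ratios between chain genes were formed in each library for 6 pairs, chosen after their values were seen, with 0.1 CPM added to each level. The ratios mix transcript lengths, and because of that choice they are given as a description, without a test. The COL1A1/COL1A2 ratio was 1.44 ± 0.45 (SD, n = 6) in Primed, 3.35 ± 0.13 (n = 3) in t2iLGöY, and -0.02 ± 0.08 in E-NHSM, both without overlap with the Primed range of 0.94 to 2.13. In 4i/L/b it was 1.48 ± 0.04, within that range. The COL4A1/COL4A2 ratio was -0.50 ± 0.20 in Primed, lower in t2iLGöY at -1.96 ± 0.10 and LCDM (EPS) at -1.98 ± 0.11, and higher in TL-CDK8i at 0.35 ± 0.05, and none of these overlapped the Primed range of -0.69 to -0.21. The COL4A5/COL4A6 ratio, 0.97 ± 0.18 in Primed, was highest in LCDM (EPS) at 1.86 ± 0.12 and lowest in t2iLGöY at -0.21 ± 0.19.

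Type VI collagen gave the widest departures. The COL6A1/COL6A3 ratio was 0.62 ± 0.58 in Primed, -3.50 ± 0.07 in E-NHSM, and 4.10 ± 1.28 in t2iLGöY, both without overlap with Primed. The t2iLGöY value rested on COL6A3 levels between 0.335 and 4.18 CPM, and its SD was the largest among the groups of this pair. The COL6A1/COL6A2 ratio was -0.61 ± 0.28 in Primed, -2.60 ± 0.18 in E-NHSM, and 0.74 ± 0.04 in NHSM-v. The Primed ratios were not free of the letters, since the 3 K libraries held the lowest 3 COL1A1/COL1A2 ratios. The Primed values of COL9A1/COL9A2 spread from -3.52 to 0.15, and every protocol overlapped them.

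**Figure D5:**
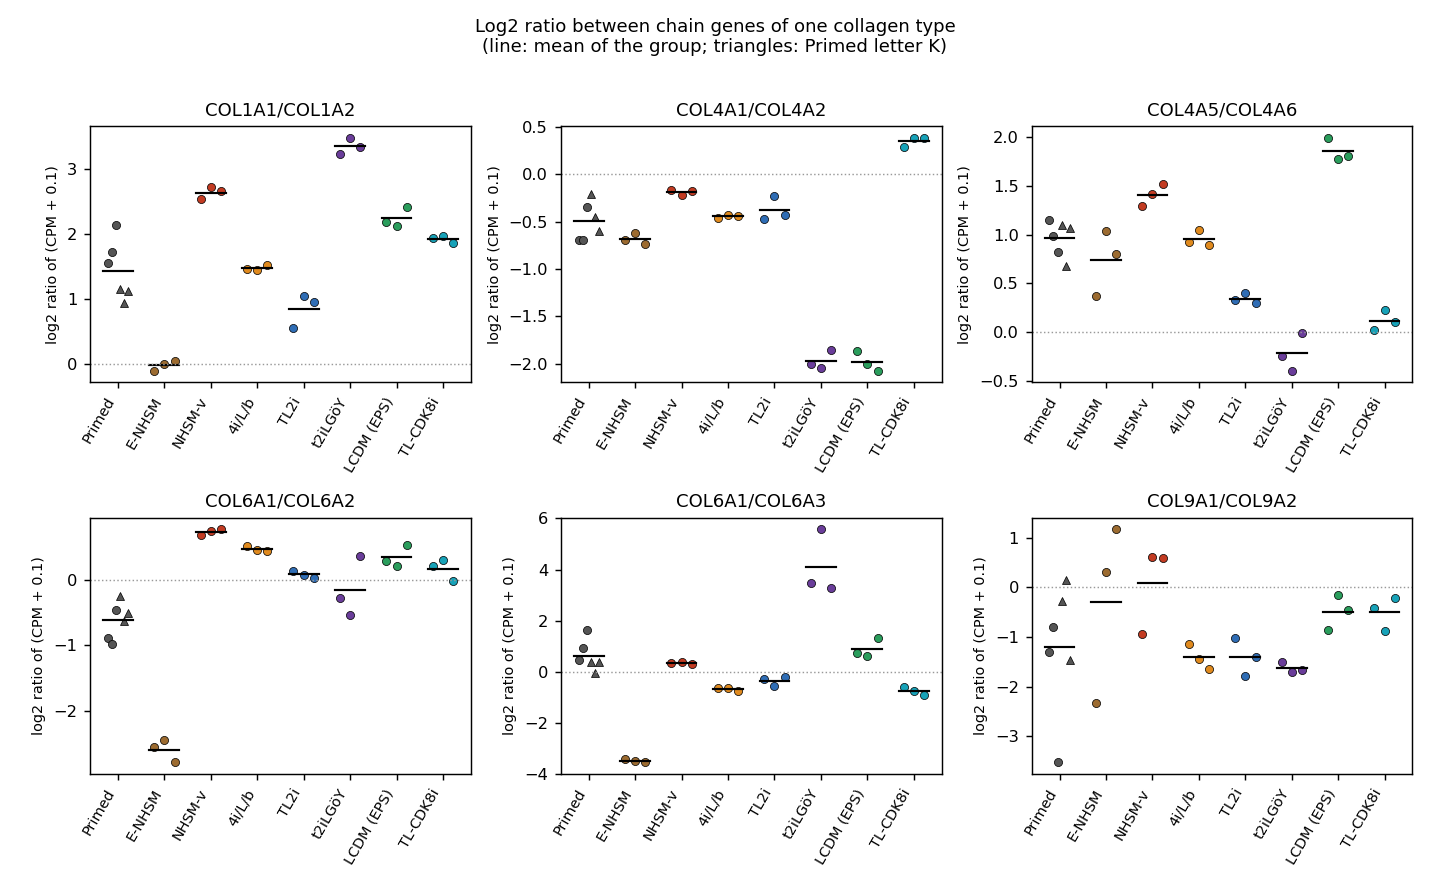
Log2 ratio of (CPM + 0.1) between chain genes of one collagen type in the 27 libraries, by group, for 6 pairs. Points are libraries (triangles are Primed libraries of letter K), black lines are group means, and the dotted line marks a ratio of 0. t2iLGöY and LCDM (EPS) lie near -2 for COL4A1/COL4A2 while every other library is above -0.75, and E-NHSM lies near -3.5 for COL6A1/COL6A3.

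TL-CDK8i and TL2i both activate STAT3-ERT2 and differ in their inhibitors, and they were compared directly, without Primed. Of the collagens tested, 9 were higher and 21 lower in TL-CDK8i, where 65.2% of all genes were called (31.7% higher and 33.5% lower). COL8A1 showed the largest difference, 4.79 ± 0.31 (adjusted p = 3.41e-05), from 27.5 ± 8.58 CPM in TL2i to 769 ± 169 in TL-CDK8i. COL8A2 (2.86 ± 0.46, adjusted p = 5.55e-05), COL1A1 (1.58 ± 0.29, adjusted p = 0.00301), COL5A2 (1.51 ± 0.16, adjusted p = 7.75e-06), and COL1A2 (0.56 ± 0.14, adjusted p = 0.00406) were higher in TL-CDK8i too. COL2A1 (-1.20 ± 0.15, adjusted p = 1.71e-05) and COL18A1 (-1.74 ± 0.16, adjusted p = 2.48e-06) were lower. The type VI genes were lower as well, with COL6A1 at -1.03 ± 0.19 (adjusted p = 0.00141), COL6A2 at -1.13 ± 0.14 (adjusted p = 1.34e-05), and COL6A3 at -0.65 ± 0.22 (adjusted p = 0.0372). COL4A2 was lower (-0.84 ± 0.14, adjusted p = 9.86e-05), whereas COL4A1 was not called (-0.13 ± 0.18, adjusted p = 0.545). Larger differences in this direction were found for COL11A2 (-3.88 ± 0.66, adjusted p = 0.00469), COL6A6 (-3.10 ± 0.30, adjusted p = 7.83e-07), COL23A1 (-2.92 ± 0.27, adjusted p = 1.54e-07), and COL13A1 (-2.69 ± 0.22, adjusted p = 1.38e-07). COL3A1 (-0.41 ± 0.26, adjusted p = 0.217) and COL12A1 (0.82 ± 0.31, adjusted p = 0.0707) missed the threshold.

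Across the 7 protocols, without Primed, 37 of the 38 collagens tested differed, where 90.8% of all genes did. The span between the highest and the lowest protocol mean, on the log2 scale, was 9.10 for COL6A3 (NHSM-v over t2iLGöY), 9.05 for COL8A1 (TL-CDK8i over E-NHSM), 8.87 for COL2A1 (4i/L/b over E-NHSM), and 7.37 for COL6A1 (NHSM-v over E-NHSM). Spans were smallest for COL5A3 (1.44) and COL9A1 (1.96). COL4A3 was the 1 tested gene not called (adjusted p = 0.608), and COL10A1 was too low to be tested.

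Genes that act on collagens were read from lists. Collagen maturation genes encode the enzymes and chaperones that modify, fold, trim, and cross-link the chains, and 30 of 32 listed genes were found. Of these, 19 rose and 2 fell in 4i/L/b, 15 rose and 4 fell in NHSM-v, 15 rose and 1 fell in TL-CDK8i, and 12 rose and 3 fell in TL2i. In t2iLGöY 4 rose and 12 fell, in LCDM (EPS) 2 rose and 18 fell, and in E-NHSM 1 rose and 13 fell of 29 tested. Over all genes, between 22.4% and 27.9% were called higher in the first 4 of these protocols, and 27.2%, 28.8%, and 15.2% lower in the last 3. LOX, which cross-links fibers, had 72.7 ± 36.4 CPM in Primed, 344 ± 34.1 in TL-CDK8i (2.21 ± 0.41, adjusted p = 0.00231), and 21.9 ± 4.67 in E-NHSM (-1.73 ± 0.47, adjusted p = 0.0274). P3H2, a prolyl hydroxylase that acts on type IV collagen, fell in LCDM (EPS) from 60.05 ± 15.3 to 3.49 ± 0.813 CPM (-4.06 ± 0.27, adjusted p = 3.7e-09) and in E-NHSM to 8 ± 1.15 (-2.90 ± 0.23, adjusted p = 5.41e-09). In t2iLGöY, 18 collagens were higher while 12 of the 30 maturation genes were lower.

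Collagen receptors are integrins and the DDR kinases that bind collagen at the cell surface. Of the 8 tested in each comparison but E-NHSM, which had 7, 6 rose in 4i/L/b, 5 each in NHSM-v and TL-CDK8i, and 2 each in TL2i and t2iLGöY, where 2 and 3 fell. In LCDM (EPS) 1 rose and 4 fell, and in E-NHSM 4 fell. The shares of all genes in these comparisons are those given for the maturation genes, with 28.1% higher in LCDM (EPS), 27.1% higher in t2iLGöY, and 25.1% lower in TL2i. ITGA11, a receptor for type I collagen, had 1.65 ± 1.44 CPM in Primed and 68.8 ± 17.9 in TL-CDK8i (5.33 ± 0.68, adjusted p = 0.000126), and ITGB1, its partner, went from 988 ± 141 to 4361 ± 617 (2.11 ± 0.11, adjusted p = 2.15e-09). DDR1, the epithelial receptor kinase, was the gene that rose in LCDM (EPS), to 737 ± 21.6 from 143 ± 19 CPM (2.40 ± 0.10, adjusted p = 2.45e-11). Of the collagen cleavage genes, 6 of 7 rose and 1 fell in 4i/L/b, 4 rose and 1 fell in NHSM-v, 3 rose and 2 fell in TL2i, 2 rose and 2 fell in t2iLGöY, and 2 of 8 rose in TL-CDK8i. In LCDM (EPS) 1 rose and 4 fell of 7, and in E-NHSM 4 fell, where 28.8% and 15.2% of all genes were called lower. In TL-CDK8i the 2 of 8 stood beside 22.4% of all genes called higher. Shares of all genes called higher and lower were 26.5% and 28.9% in 4i/L/b, and 27.9% and 30.4% in NHSM-v. They were 25.6% and 25.1% in TL2i, and 27.1% and 27.2% in t2iLGöY. MMP2, a gelatinase, was at 161 ± 32.1 CPM in Primed and 1062 ± 67.2 in TL-CDK8i (2.68 ± 0.15, adjusted p = 1.93e-08). Among fibril-associated proteins, 11 of 15 tested rose in 4i/L/b, 10 of 14 in TL-CDK8i, and 8 of 14 in TL2i, with 26.5%, 22.4%, and 25.6% of all genes higher. In NHSM-v 5 rose and 3 fell of 13, in LCDM (EPS) 3 rose and 6 fell of 13, in t2iLGöY 2 rose and 5 fell of 12, and in E-NHSM 1 rose and 3 fell of 11. Over all genes, 27.9% were higher and 30.4% lower in NHSM-v, and 28.1% and 28.8% in LCDM (EPS). The shares were 27.1% and 27.2% in t2iLGöY, and 11.2% and 15.2% in E-NHSM. LUM, which spaces fibrils, was at 0 in Primed and at 47 ± 15.2 CPM in 4i/L/b. In t2iLGöY, where LUM was at 0 as well, ASPN, a related proteoglycan, reached 75.1 ± 12.3 CPM from 2.55 ± 2.36 (4.98 ± 0.80, adjusted p = 0.000649), and THBS2, a matrix protein of connective tissue, fell from 398 ± 49.2 to 25.1 ± 1.78 (-3.95 ± 0.13, adjusted p = 2.15e-13). P3H4 and COLGALT1 of the maturation list were not analysed here.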

How the data were processed

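Directional mRNA libraries of 27 samples were sequenced as single reads. The authors deposited raw read counts per gene symbol, and per the labels their processing used bcl2fastq, cutadapt, HISAT2, and HTSeq; versions, genome build, annotation, and the handling of reads shared between genes are not given in the sources used here. Reads of near-identical genes could therefore be split or lost before deposit.

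The 8 count tables were joined on gene symbol, with no unmapped column (0). Samples were grouped by their labels. The members and lists were chosen with earlier results of these data known. edgeR 4.0.16 in R 4.3.3, with limma 3.58.1, was used for TMM scaling, filterByExpr, and robust quasi-likelihood tests fitted to all genes of the libraries compared, with Benjamini-Hochberg adjustment and a threshold of 0.05. Protocols were compared in pairs in the fit over the 7 protocols. Scripts were tested on simulated data.

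Values of every library are given for the 5 members of each class with the highest group mean, and genes of pathway lists by the size of their change among those called, at most 4 a list. Alternatives were DESeq2 1.42.0, upper-quartile scaling, no filter, a minimum absolute log2 fold change of 1, all groups in one fit, Primed libraries of one letter, each library left out, and a replicate block. Sums without their leading marker, bounds without the highest Primed library, and single-gene values against Primed libraries of one letter were added after the data were seen. Library totals had a median of 12201171 counts, and genes near 3 counts are the least precise.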

Additional observations from a re-analysis of the deposited data

Results flagged for a closer look

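In 5 of the 39 collagen genes, 1 Primed library stood far from the other 5 by Dixon's criterion. Chance alone meets it in about 1 in 20 groups of normally distributed values, a rate that need not hold for low counts. COL9A2 read 35.1 CPM in Primed J3 against 6.06 to 12.5 in the others, and COL10A1 read 6.76 CPM in the same library against 0.282 to 2.25. COL13A1 read 3.01 CPM in Primed J2 against 0 to 0.889. COL20A1 read 0.628 CPM in Primed K3 and COL28A1 0.433 CPM in Primed K1, and both were at 0 in the other Primed libraries. With all other values at 0, any count above 0 meets the criterion, so these flags were fixed by the zeros. The groups of 3 libraries were not tested in this way.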

How the results depend on the processing

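The total of collagen genes called stayed within 1.5 times its value under every alternative run, but the higher calls in LCDM (EPS) fell from 8 to 5 without LCDM (EPS) replicate 1 or 2. With a single library left out it ranged from 12 to 18 in E-NHSM, 25 to 27 in NHSM-v, 24 to 29 in 4i/L/b, 26 to 32 in TL2i, 20 to 24 in t2iLGöY, 15 to 21 in LCDM (EPS), and 18 to 23 in TL-CDK8i. It ranged from 28 to 31 for TL-CDK8i against TL2i and from 36 to 37 across protocols. Of 165 single-gene calls, 133 held under every alternative apart from the minimum fold change. Signs turned under 8 settings, in 4 comparisons not called with all libraries. COL6A2 in LCDM (EPS) ranged from -0.25 to 0.075 with a library left out (0.016 without Primed J1 and 0.075 without J2) and was 0.46 against the K libraries alone, which passed the threshold (adjusted p = 0.0109). COL6A2 in E-NHSM was 0.31 against K alone. COL8A1 in LCDM (EPS) ranged from -0.51 to 0.30 (0.30 without Primed K1 and 0.085 without LCDM (EPS) replicate 3) and was 0.95 against J alone, and COL8A1 in t2iLGöY was 0.46 against J alone. The cause was not tested.

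No paired analysis was possible because the Primed columns could be tied to their group but not to numbered samples. Between protocols, same-numbered libraries correlated between -0.12 and 0.062, and 1 of 21 libraries correlated best with its own number. With the replicate number as a block, 30 genes were called for TL-CDK8i against TL2i and 36 across protocols. With a minimum fold change, TL-CDK8i against TL2i gave 20. Depth limits COL4A3, COL6A5, COL10A1, COL20A1, COL21A1, and COL28A1, which had few counts.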
